A study of Rattus norvegicus with 9 samples.

Results

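Mitosis and cytokinesis were followed through 6 genes in rat bone marrow MSCs and in the cells induced from them: Kif20a, Kif23, Kif18a, Ube2c, Cdca3 and Cenpa. They were taken by their gene IDs from the 26249 genes and transcript units of the data, and all 6 were found. The levels of Kif23, Ube2c, Cdca3 and Cenpa were far lower in induced cells than in MSCs. Kif20a was lower as well, but its level in induced cells is known only up to a limit. Kif18a was the exception. Whether it was called depended on the value of 1 MSC library and, in IGF-1 cells, also on the processing.

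The mRNA-seq libraries formed 3 groups, with 3 libraries in each. MSCs came from the bone marrow of 3 Sprague-Dawley rats, 4 weeks old by the study's methods, and were at passage 3. By the same methods the NPCs derive from the MSCs of these rats, so MSCs and NPCs share animals. NPCs are MSCs at passage 3 that were induced for 3 days with EGF and bFGF, each at 20 ng/ml, as floating cells in a neural stem cell medium on plates to which cells do not attach. The last group, called IGF-1 cells here, received IGF-1 beside EGF and bFGF over the same 3 days. Neither the labels nor the methods state the dose, and the methods do not name the rats of this group. No library of floating cells without the growth factors is among the data, so medium, suspension and growth factors cannot be told apart. In bulk RNA, fewer dividing cells and less mRNA in each dividing cell cannot be told apart either. Levels are FPKM, which count fragments relative to the length of the transcript and the depth of the library, with all isoforms of a gene added. The confidence intervals that come with the FPKM imply 40.0 to 52.6 M reads in a library. A number of reads behind a gene was derived from them in the same way. Where that number was not whole, as for most member values in MSCs, it is an approximation and not a count. A gene is called changed where limma gave a Benjamini-Hochberg adjusted p no higher than 0.05 and a log2 fold change of 1 or more in either direction, on FPKM + 0.1 after scaling between libraries.

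A cell that enters mitosis packs its chromosomes, attaches them to spindle microtubules at the kinetochores, pulls them apart and then pinches into daughter cells. Cenpa is the histone H3 variant that marks the centromere, on which the kinetochore is built. Kif18a is a kinesin, a motor that walks on microtubules, and it damps the movements of chromosomes as they line up. Ube2c is the ubiquitin-conjugating enzyme of the anaphase-promoting complex, which marks cyclins and securin for destruction so that the cell can leave mitosis. Cdca3 is a cell cycle protein linked to the entry into mitosis and is itself removed in G1 phase. Kif20a and Kif23 are kinesins of the central spindle and the midbody, where cytokinesis is completed. Most such genes are transcribed late in the cell cycle, and CCAAT boxes and the cell cycle genes homology region, or CHR, are elements known from promoters of this class.

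The promoters of the members are shown as the 250 bases before the start of the gene in RefSeq, on build GRCr8. They run 5′ to 3′ on the strand of the gene. Of the 6 members, 5 had an entry. Capitals mark matches to CCAAT, to the CHR letters TTTGAA or CTTGAA, and to the E2F letters TTTGGCGC or TTTCGCGC, each searched on both strands.
Kif20a, chr18:26504172-26504421, plus strand: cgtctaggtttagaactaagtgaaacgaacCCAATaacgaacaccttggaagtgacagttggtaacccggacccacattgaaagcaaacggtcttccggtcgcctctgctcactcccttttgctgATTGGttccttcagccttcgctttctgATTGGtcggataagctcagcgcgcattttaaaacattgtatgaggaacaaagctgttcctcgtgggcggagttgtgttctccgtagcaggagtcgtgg
Kif23, chr8:71320585-71320834, minus strand: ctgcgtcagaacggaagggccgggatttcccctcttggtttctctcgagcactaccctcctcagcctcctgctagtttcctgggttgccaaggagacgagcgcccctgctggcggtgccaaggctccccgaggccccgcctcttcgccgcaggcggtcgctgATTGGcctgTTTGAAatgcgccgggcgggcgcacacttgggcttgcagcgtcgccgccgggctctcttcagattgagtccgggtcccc
Kif18a, chr3:116218757-116219006, plus strand: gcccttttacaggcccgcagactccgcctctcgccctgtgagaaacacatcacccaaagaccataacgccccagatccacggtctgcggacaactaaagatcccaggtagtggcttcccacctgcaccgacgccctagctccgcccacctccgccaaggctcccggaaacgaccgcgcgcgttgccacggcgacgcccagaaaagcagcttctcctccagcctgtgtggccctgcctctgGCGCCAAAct
Cdca3, chr4:159320953-159321202, plus strand: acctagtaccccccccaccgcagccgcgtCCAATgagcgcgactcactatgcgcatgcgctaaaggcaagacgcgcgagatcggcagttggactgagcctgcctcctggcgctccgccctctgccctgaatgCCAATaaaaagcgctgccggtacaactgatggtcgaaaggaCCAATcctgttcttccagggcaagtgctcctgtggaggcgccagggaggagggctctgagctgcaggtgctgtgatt
Cenpa, chr6:31431553-31431802, minus strand: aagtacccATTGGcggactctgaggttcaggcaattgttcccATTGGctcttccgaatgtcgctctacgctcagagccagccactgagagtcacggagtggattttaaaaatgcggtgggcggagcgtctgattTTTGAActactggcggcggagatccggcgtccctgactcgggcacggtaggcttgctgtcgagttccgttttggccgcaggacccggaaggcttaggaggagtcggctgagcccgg

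CCAAT was found in 34.0% of the 33469 windows of this length in the whole table, TTTGAA in 16.2%, CTTGAA in 11.8%, TTTGGCGC in 0.412% and TTTCGCGC in 0.248%. Kif20a, Cdca3, Cenpa and Kif23 held CCAAT. In Kif20a its matches began 220, 125 and 98 bases before the start, and in Cdca3 221, 118 and 77 bases before it. Cenpa had CCAAT at 242 and 208 bases before the start and TTTGAA at 116. Kif23 had CCAAT at 88 and TTTGAA at 79 bases before the start, close to each other. Kif18a held no CCAAT and no TTTGAA, and had TTTGGCGC on the opposite strand 10 bases before the start. Kif20a and Cdca3 held no TTTGAA either. No match overlapped another. A match is a description of these letters and was not tied to the binding of any factor.

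**Figure D1:**
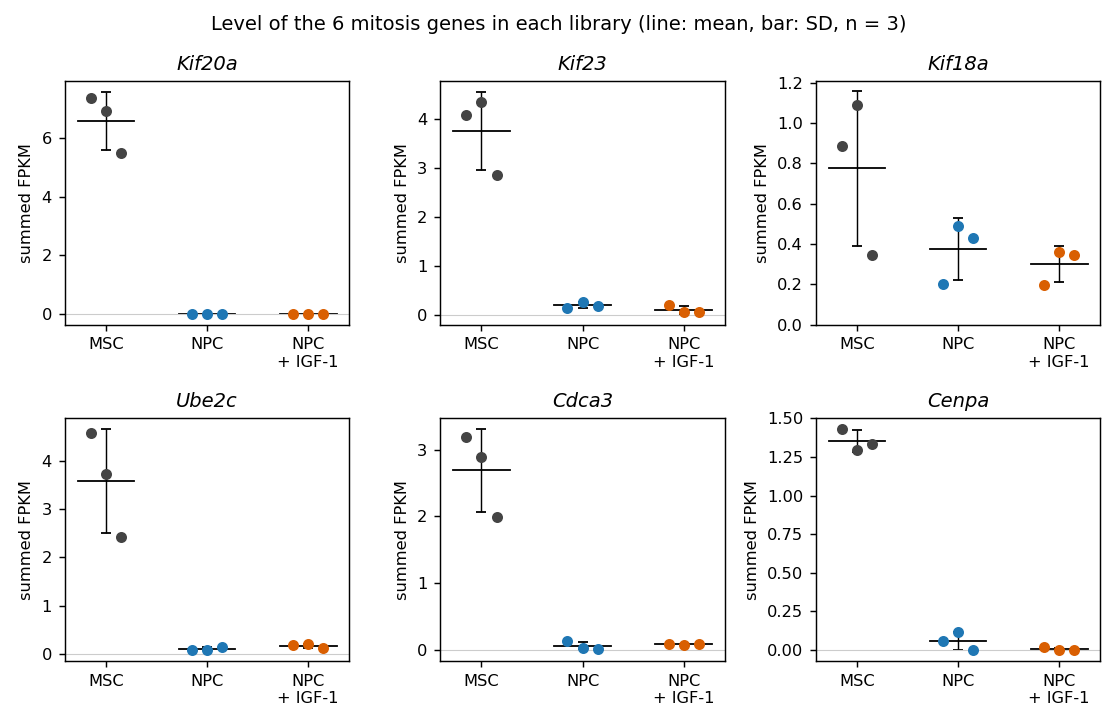
Summed FPKM (vertical axes, linear) of the 6 genes in each library, with groups on the horizontal axes. Points are libraries in the order of their numbers, horizontal lines are means and bars are SD (n = 3). The libraries of induced cells lie under every MSC library for each gene other than Kif18a, whose MSC library 3, at 0.346 FPKM, lies among the induced cells.

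The kinesin genes of cytokinesis were described first. Kif23 (ENSRNOG00000014080) lies on chromosome 8 of the files' build, which neither labels nor headers name, from 66598467 to 66624304 on the minus strand, and its annotated transcript has 24 exons and 3209 bases. Its level was 4.08, 4.35 and 2.86 FPKM in MSC libraries 1 to 3. It was 0.155, 0.272 and 0.194 FPKM in the NPC libraries and 0.208, 0.0748 and 0.0662 FPKM in the IGF-1 cells. Each library of induced cells was thus under every MSC library, and the mean fell from 3.76 ± 0.793 FPKM (SD, n = 3) in MSCs to 0.207 ± 0.0598 FPKM in NPCs, which was 5.50% of the MSC level. The induced libraries held between 9 and 33.4 reads of the transcript each, so that Kif23 was low but measurable. The log2 fold change of NPCs over MSCs, computed on FPKM + 0.1, was −3.71 (SE 0.25, 95% interval −4.31 to −3.12) with an adjusted p of 8.22e-05 in limma. For IGF-1 cells over MSCs it was −4.27 (SE 0.29, adjusted p = 1.13e-05 in limma). In MSC library 2 all of the signal was listed on 2 unannotated isoforms and none on the annotated transcript. With annotated transcripts alone the fold change was therefore −1.68 and no longer called (adjusted p = 0.500 in limma), and −2.25 for IGF-1 cells (adjusted p = 0.283).

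Kif20a (ENSRNOG00000024428) spans 27137685 to 27146171 on the plus strand of chromosome 18, with 19 exons and 2921 bases. It was the member with the highest level in MSCs, at 7.36, 6.91 and 5.47 FPKM, and was listed at 0 in all 6 libraries of induced cells. That 0 need not be a count of 0 reads, although the upper confidence limits beside it are only 0.0138 to 0.0169 FPKM. The last 15 bases of Kif20a are shared with a gene on the opposite strand, ENSRNOG00000024241 (27146157 to 27165911), so that Cufflinks gave both genes shares of the same locus. The share of Kif20a was 0.276, 0.243 and 0.222 in the MSC libraries. Among the 687502 transcripts that the 9 libraries list above 0 FPKM, 0 had a share of their locus under 0.1, and the lowest share was 0.100014. A transcript under that share is listed at 0. A share of 0.1 would correspond to between 2.00 and 2.72 FPKM of Kif20a in the induced libraries, and its level there lies somewhere from 0 up to this limit. The lowest MSC library was 2.01 times the highest such limit. With every 0 set to its limit, a choice made after the data were seen, the log2 fold change was −1.47 for NPCs (adjusted p = 0.00109 in limma) and −1.48 for IGF-1 cells (adjusted p = 0.000145), both still called. The neighbour did not pass the test. It had 18.2 ± 1.36 FPKM in MSCs, 20.1 ± 3.19 FPKM in NPCs and 19.9 ± 0.886 FPKM in IGF-1 cells (SD, n = 3 each).

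**Figure D2:**
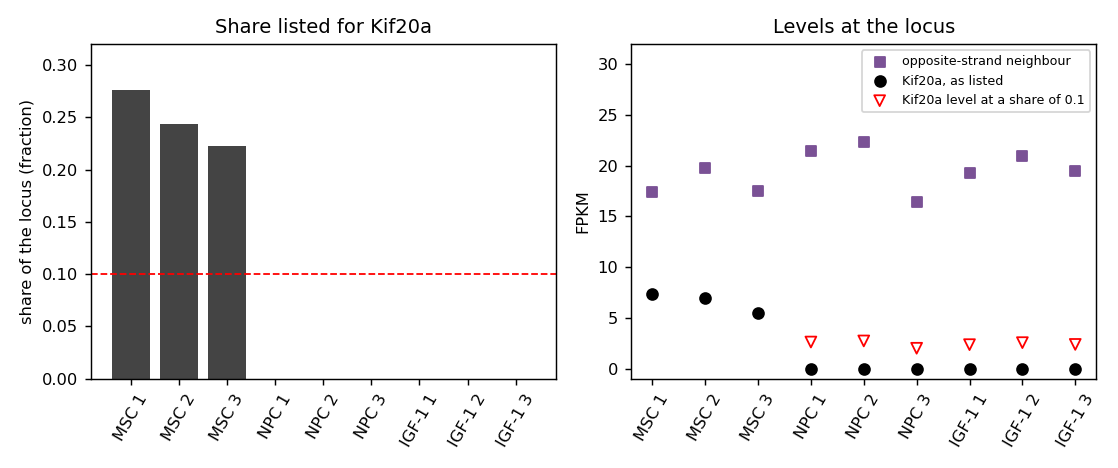
Left, the share of the locus listed for Kif20a (fraction, vertical axis) in each library, with the limit of 0.1 as a dashed line. Right, FPKM of Kif20a as listed, of its neighbour on the opposite strand, and of Kif20a at a share of 0.1 where it is listed at 0, which reaches 2.72 FPKM and stays under the MSC libraries.

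Ube2c, the enzyme of exit from mitosis, lies at 167422569 to 167424969 on the plus strand of chromosome 3 (ENSRNOG00000015131, 5 exons, 763 bases). Its level was 4.58, 3.73 and 2.43 FPKM in MSCs, 0.0846, 0.0865 and 0.145 FPKM in NPCs, and 0.177, 0.202 and 0.120 FPKM in IGF-1 cells. The groups of induced cells did not reach the MSC values, and they lay close to each other. The 3 NPC libraries rested on 8 reads of Ube2c in all and the IGF-1 libraries on 13, against about 283 in MSCs, a rounded sum. Scaled to depth, MSCs had 32.3 times the reads of NPCs, with an exact binomial 95% interval of 16.2 to 75.6 that covers counting error only. Its log2 fold change was −4.19 in NPCs (SE 0.28, 95% interval −4.85 to −3.52, adjusted p = 7.97e-05 in limma). It was −3.83 in IGF-1 cells (SE 0.27, adjusted p = 1.20e-05 in limma). RefSeq lists 4 Ube2c pseudogenes and a Ube2c-like gene in the rat, and neither labels nor methods say how reads shared with them were assigned. A gene that spans Ube2c on the same strand, ENSRNOG00000015181, was at 7.59 ± 1.86 FPKM in MSCs and 8.40 ± 1.94 FPKM in NPCs and did not pass the test.

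Cdca3 (ENSRNOG00000015529) lies on chromosome 4 from 224365696 to 224369280 on the plus strand, with 6 exons and 1492 bases. It had 3.18, 2.90 and 2.00 FPKM in MSCs. It had 0.138, 0.0388 and 0.0169 FPKM in NPCs, on 7, 2 and 1 reads, and 0.0967, 0.0753 and 0.0913 FPKM in IGF-1 cells. The NPC libraries thus spread widely among themselves, and each was far under the MSC range. The mean was 2.69 ± 0.618 FPKM in MSCs and 0.0645 ± 0.0643 FPKM in NPCs (SD, n = 3), and depth-scaled reads were 39.8 times higher in MSCs (exact binomial 95% interval 21.4 to 83.6). On the log2 scale the change was −4.18 in NPCs (SE 0.33, adjusted p = 0.000151 in limma) and −3.94 in IGF-1 cells (SE 0.30, adjusted p = 2.05e-05 in limma). The transcript that starts on the other strand 216 bases before Cdca3 was at 38.4 ± 5.80 FPKM in MSCs and 25.7 ± 2.38 FPKM in NPCs. Its log2 fold change of −0.65 was under the fold threshold (adjusted p = 0.0371 in limma).

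Cenpa, the centromeric histone, lies on the minus strand of chromosome 6 from 36888797 to 36896348 (ENSRNOG00000032178, 5 exons, 1381 bases). Its level was 1.43, 1.30 and 1.33 FPKM in MSCs, with 0.355 FPKM of the first on an unannotated isoform. After scaling in the fit of all 9 libraries Cenpa was at 1.43, 1.29 and 1.53. In NPCs it was at 0.0575, 0.115 and 0 FPKM, on 3, 6 and 0 reads, and in IGF-1 cells at 0.0159, 0 and 0 FPKM, with 1 read in the whole group. A count of 0 allows up to 3 reads, which would be 0.0482 FPKM in NPC library 3 and 0.0537 and 0.0535 FPKM in IGF-1 libraries 2 and 3, all far under the MSC values. Depth-scaled reads were 21.5 times higher in MSCs than in NPCs (exact binomial 95% interval 11.1 to 47.7) and 204 times higher than in IGF-1 cells, where the interval of 36.3 to 8104 was wide. This gave a log2 fold change of −3.33 in NPCs (SE 0.33, 95% interval −4.09 to −2.57, adjusted p = 0.000363 in limma) and −3.85 in IGF-1 cells (adjusted p = 2.23e-05 in limma).

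Kif18a, the kinesin of chromosome alignment, lies on the plus strand of chromosome 3 from 106967785 to 107028416 (ENSRNOG00000005037, 16 exons, 3001 bases). It had 0.888, 1.09 and 0.346 FPKM in MSCs, 0.200, 0.492 and 0.432 FPKM in NPCs, and 0.197, 0.359 and 0.347 FPKM in IGF-1 cells. MSC libraries 1 and 2 were above all induced libraries, and MSC library 3 was within their range. The mean of 0.775 ± 0.386 FPKM in MSCs was 2.07 times that of NPCs, at 0.375 ± 0.154 FPKM (SD, n = 3). The log2 fold change was −0.88 (SE 0.42, 95% interval −1.85 to 0.09, adjusted p = 0.138 in limma) in NPCs and −1.10 (SE 0.40, 95% interval −2.00 to −0.21, adjusted p = 0.0528 in limma) in IGF-1 cells, so that neither passed. The value of MSC library 3 stands apart in another way. Its interval implied 81.9 reads, or 5.17 reads for each FPKM and each M reads of depth, against 2.79 to 3.01 in the other 8 libraries. At the mean ratio of those libraries the same reads would stand for 0.614 FPKM, which is above every induced library. Since 81.9 is not a whole number of reads, this level is itself uncertain. With that value, an alternative that was added after the data were seen, the log2 fold change was −1.12 in NPCs (adjusted p = 0.0351 in limma) and −1.34 in IGF-1 cells (adjusted p = 0.0103), both called. Without MSC library 3 it was −1.27 (adjusted p = 0.0496 in limma) and −1.49 (adjusted p = 0.0163). The ratio of reads to FPKM was examined for Kif18a alone, and it is not steady for every other member. Cdca3 had 84.9 reads at 2.00 FPKM in MSC library 3 and 169.5 at 3.18 FPKM in MSC library 1. Fewer reads thus stood behind each FPKM of Cdca3 in library 3, the other way from Kif18a.

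**Figure D3:**
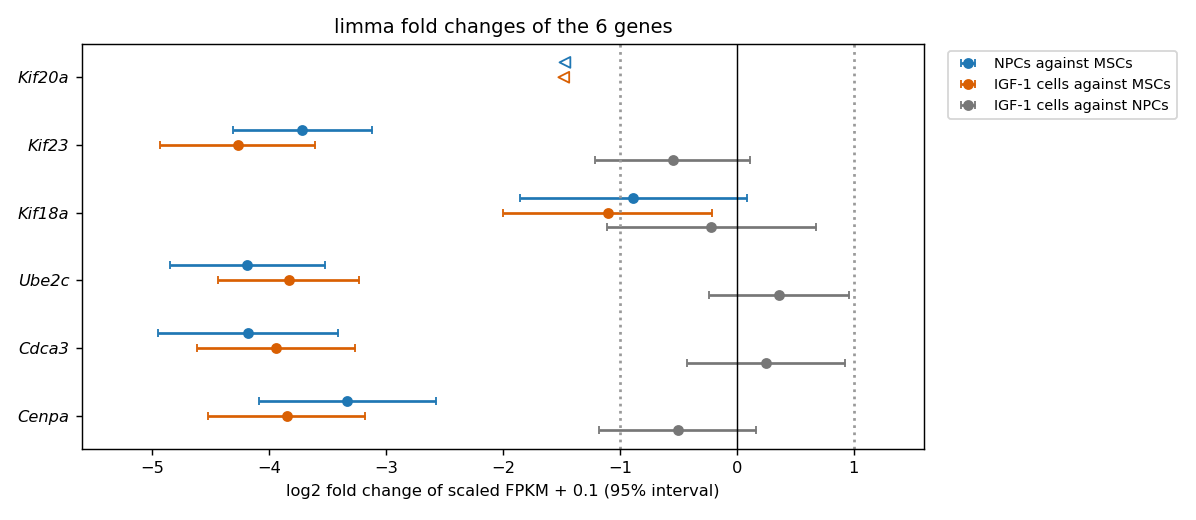
The log2 fold change of each gene (horizontal axis, on scaled FPKM + 0.1) with its 95% interval from limma for the 3 comparisons, with dotted lines at the fold threshold of 1. Kif20a is drawn only as open triangles at −1.47 and −1.48, its fold changes with the 0 values set to their limit. Kif23, Ube2c, Cdca3 and Cenpa lie far left of 0 in both comparisons with MSCs, and Kif18a lies near the threshold.

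In all, 5 of the 6 members were called lower in NPCs than in MSCs, where 10.1% of the 13696 genes tested were. In IGF-1 cells 5 of 6 were called lower as well, against 9.83% of 14228 genes. Every induced library was under each MSC library for those 5 genes, which was so for 22.3% of all genes in NPCs and for 23.3% in IGF-1 cells. Both comparisons use the same MSC libraries and are not independent. Of the 6 genes, Kif23 and Kif18a reached the minimum of 0.1 FPKM in the 3 NPC libraries, and the other 4 entered the comparison of NPCs with MSCs only through their MSC values. In the fit for IGF-1 cells this held for 3 genes, Kif20a, Cdca3 and Cenpa. Genes that enter in this way had to be lower in induced cells, so the counts of 5 describe the members and are not support for a direction.

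IGF-1 cells were next compared with NPCs, which differ by the added factor. The members called were 0 of 6, and 0 of 6 had an unadjusted p under 0.05 in limma, where 0.0211% of all 14228 genes were called and 657 had such a p. The 95% interval of the log2 fold change of IGF-1 cells over NPCs was −0.24 to 0.96 for Ube2c, −0.42 to 0.92 for Cdca3 and −1.11 to 0.67 for Kif18a. It was −1.21 to 0.11 for Kif23 and −1.17 to 0.17 for Cenpa. These intervals are on FPKM + 0.1, which shrinks the change of genes at or under that level. They do not bound the fold of Cenpa, Cdca3, Ube2c or Kif23, each under 0.1 FPKM in some induced libraries. Cenpa had 9 reads in NPCs and 1 in IGF-1 cells, and with a pseudocount of 0.01 FPKM its log2 fold change was −1.66, also not called in limma. A difference in these genes was not detected, and for Kif20a, listed at 0 in both groups, none can be given.

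The other genes of mitosis were taken from lists of 141 symbols beside the 6 members. Of these, 33 could be matched to a gene ID and 32 were tested. In NPCs 24 fell, 0 rose and 8 did not pass. Their median log2 fold change was −2.05, beside 0.02 over all genes tested. In IGF-1 cells 26 fell, 0 rose and 6 did not pass, with a median of −2.16 beside 0.04. Over all genes tested, 10.1% were called lower in NPCs and 9.83% in IGF-1 cells. Most names, 24 of 33, came from the study's own table of genes that differ between these samples, and they are not independent evidence of a direction. Of the 9 named from a table ordered by gene ID, 8 were tested and 5 were called lower in NPCs: Cdk1, Cenpf, Nuf2, Kifc1 and Pttg1. The 24 tested genes that reached 0.1 FPKM in all 3 NPC libraries held 16 that fell. The other 8 entered only through their MSC values: Kif4a, Kif20b, Espl1, Cenpf, Ska1, Ect2, Ttk and Bub1b. Their fall, here and in the counts by list below, is not support for a direction. Between IGF-1 cells and NPCs 0 of the 32 genes were called in limma and 1 had an unadjusted p under 0.05, beside the 657 of 14228 over all genes.

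The other mitotic kinesins fell in NPCs, all 4 of those tested. Kif4a, which works with the central spindle, went from 1.14 ± 0.281 to 0.0776 ± 0.0216 FPKM (log2 fold change −2.84, adjusted p = 0.00029 in limma). Kif20b, a relative of Kif20a in cytokinesis, went from 1.32 ± 0.607 to 0.110 ± 0.0578 FPKM (−2.74). Among the others it was −2.05 for Cenpe, a motor of the kinetochore, and −2.06 for Kifc1, which focuses spindle poles. In the cytokinesis list all 3 tested genes fell. Ect2, the exchange factor that switches on RhoA at the cleavage furrow, had a log2 fold change of −3.38. Prc1, which bundles the microtubules of the central spindle, went from 8.17 ± 2.54 to 0.887 ± 0.176 FPKM (−3.10). Plk4, the kinase of centriole duplication, had −1.49.

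Around Ube2c, 3 of 4 tested genes of the anaphase-promoting complex and its targets fell. Cdc20, the activator of the complex, went from 4.49 ± 1.58 to 1.03 ± 0.184 FPKM (log2 fold change −2.05, adjusted p = 0.00159 in limma). Pttg1, or securin, had −1.89, and Espl1, the protease separase that securin holds back, had −1.74. Anapc16, a subunit of the complex itself, was at 8.64 ± 2.54 FPKM in MSCs and 8.45 ± 1.26 FPKM in NPCs and did not pass. Around Cenpa, 5 of 6 tested centromere and kinetochore genes fell. It was −3.57 on the log2 scale for Cenpf, a large protein of the outer kinetochore and fibrous corona, −3.27 for Nuf2 and −2.37 for Spc25, both of the NDC80 complex that grips microtubules, and −2.57 for Ska1, which tracks their ends.

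Of the genes of entry into mitosis 4 of 6 fell in NPCs. Ccna2, the A-type cyclin, had −2.91, Tpx2, which activates Aurora A, −2.07 and Plk1, a kinase of many mitotic steps, −2.02. Cdk1, the kinase that drives entry, stayed the highest of these in NPCs, going from 15.1 ± 4.61 to 6.10 ± 1.20 FPKM (log2 fold change −1.34, adjusted p = 0.00508 in limma). In the spindle checkpoint 3 of 6 fell, among them the kinases Ttk (−3.40) and Bub1b (−2.37) and the kinetochore protein Kntc1 (−1.91). Mad1l1 was at 2.78 ± 0.255 FPKM in MSCs and 2.32 ± 0.652 FPKM in NPCs and did not pass. Of 3 spindle assembly genes, Nusap1 (−2.19) and Aspm (−1.34) fell, while Cdca5, or sororin, had −0.98 and missed the fold threshold. None of the 11 listed genes of chromosome condensation could be matched.

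**Figure D4:**
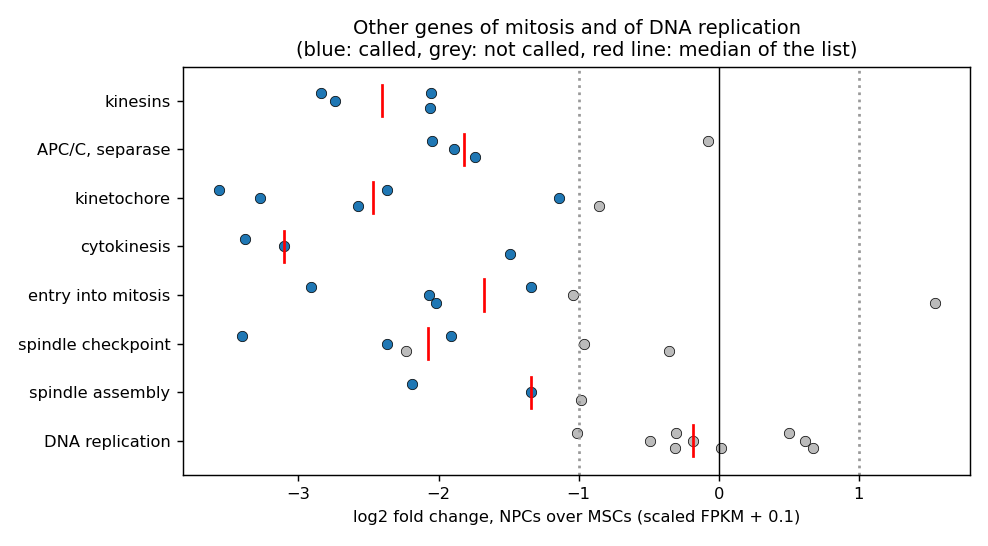
Each point is a tested gene of a list, placed by its log2 fold change of NPCs over MSCs (horizontal axis, scaled FPKM + 0.1). Blue points were called, grey points were not, red lines are list medians and dotted lines mark a size of 1. All called points lie left of −1, and the 9 DNA replication genes lie between −1.01 and 0.68.

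Genes of DNA replication, which act earlier in the cell cycle, were listed beside them. Of 42 symbols 9 were matched and tested, and 0 were called in limma in either comparison with MSCs, with a median log2 fold change of −0.19 in NPCs and −0.06 in IGF-1 cells. Mcm4, a subunit of the replicative helicase, was at 5.72 ± 1.47 FPKM in MSCs and 4.84 ± 1.01 FPKM in NPCs. Mcm7, of the same helicase, had a log2 fold change of 0.62 (adjusted p = 0.290 in limma). Rfc1 and Rfc3, of the clamp loader, had log2 fold changes of 0.50 and −0.31. Pola2, of the primase complex, had −1.01 in NPCs (adjusted p = 0.0595 in limma). Only Gins2 and Pola2 were named from the study's table of genes that differ, and the others from the table ordered by gene ID. Most mitosis genes were named from the table of genes that differ, so the sets were selected differently. The difference between these genes and the mitosis genes was not tested. Of the regulators of mitotic transcription, 2 of 14 were matched. Mybl2, a factor that joins the MuvB complex at mitotic promoters, had −1.14 in NPCs and was called, and −0.91 in IGF-1 cells, where it was not. Lin54, the MuvB subunit that binds the CHR, had 0.21 in NPCs and did not pass. None of the listed CDK inhibitors or G1 cyclins could be matched.

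The MSC libraries differed among themselves in these genes. After scaling, MSC library 3 was the lowest of the MSC libraries for 5 of the 6 members, Cenpa being the exception. It was the lowest for 30 of the 31 other tested mitosis genes with a value above 0 in all 3 libraries, for 7 of 9 replication genes, and for 37.0% of all 13480 such genes. The median of its level over the mean of MSC libraries 1 and 2 was 0.770 for the members, 0.597 for the other mitosis genes and 1.01 over all genes. The ratio ran from 0.402 for Kif18a and 0.672 for Ube2c to 0.884 for Kif20a and 1.13 for Cenpa. No label sets this library apart.

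**Figure D5:**
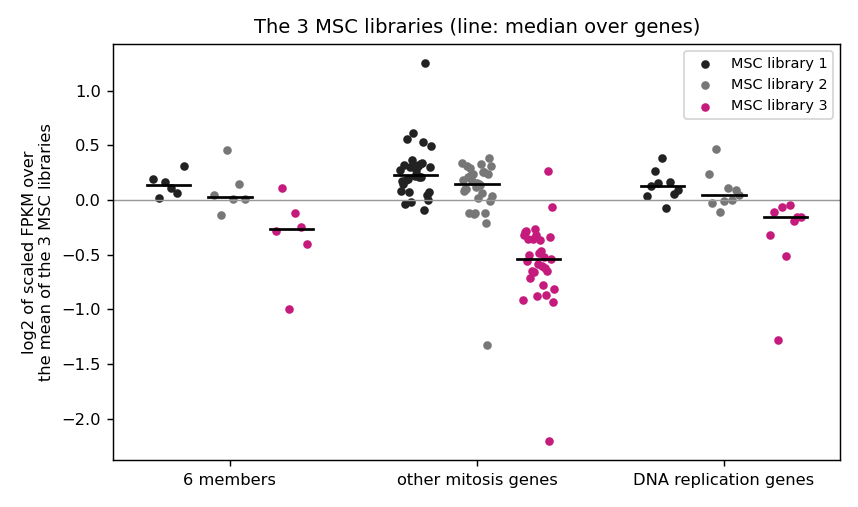
Log2 of the scaled FPKM of a gene over its mean in the 3 MSC libraries (vertical axis), for the 6 members, the other tested mitosis genes and the DNA replication genes. Points are genes, colours are MSC libraries and black lines are medians over genes. MSC library 3 lies below the others in most genes, 30 of 31 in the middle set.

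The pattern of the members over the 9 libraries was alike in 5 of them. The Pearson r of the log2 level with the mean z-score of the other 5 was 0.97 to 0.99 for Kif20a, Kif23, Ube2c, Cdca3 and Cenpa and 0.73 for Kif18a. These values share the libraries and the step between MSCs and induced cells, and they describe that step for the most part. Kif20a entered as listed, at 0 in all induced libraries. Its r and its part in the mean thus rest on values known only up to a limit. Of 1887 other named genes, the 10 most like the mean z-score of the members were Flt1, Lap3, Ttc22, Ect2, Kntc1, Acss1, Ccdc107, Tmem63c, Cenpf and Mogat2, with r from 0.992 to 0.997. Ect2, Kntc1 and Cenpf are mitosis genes of the lists above. Flt1, a receptor for vascular endothelial growth factor, was at 1.42, 1.70 and 0.780 FPKM in MSCs and listed at 0 in all induced libraries. Lap3, an aminopeptidase, went from 39.0 FPKM in MSCs to 19.7 FPKM in NPCs, a far smaller step of the same shape.

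The labels were checked against cell type markers, of which few could be matched. Of 9 MSC markers, Vim and Itgb1 were found and both were called lower in NPCs (log2 fold changes −1.92 for Vim and −2.24 for Itgb1). Of 8 neural progenitor markers 4 were found. Nes, or nestin, was at 0.152, 0.145 and 0.0534 FPKM in MSCs and 0.293, 0.328 and 0.293 FPKM in NPCs. Every NPC library was above every MSC library for Nes, and its log2 fold change of 0.89 (adjusted p = 0.0419 in limma) missed only the fold threshold, at levels where the added 0.1 shrinks the change. In IGF-1 cells it was 0.85 (adjusted p = 0.0244 in limma). Msi1 did not pass, Fabp7 was listed at 0 in every library and Prom1 fell (−2.56). Sox2 could not be matched and was not analysed here. Of 9 blood and macrophage markers 3 were found. Cd68 was at 0.502, 0.305 and 0.226 FPKM in MSCs and between 8.93 and 14.4 FPKM in all induced libraries. Ptprc and Aif1, which define blood cells and macrophages more strictly, were at or near 0 throughout, with highest values of 0.0142 and 0.0403 FPKM. Of 5 endothelial markers Vwf was found, at up to 0.0252 FPKM in MSCs and 0.228 to 0.520 FPKM in NPCs, and of 6 red cell markers Alas2, at 0.0734 to 0.132 FPKM in all libraries. The part of these changes in the level of the mitosis genes was not tested.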

How the data were processed

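Polyadenylated RNA of 9 samples was sequenced from stranded libraries made from 300 ng of total RNA. The authors assembled the transcripts of each library and deposited 1 list for it. Per the labels the tools were CASAVA 1.8, bcl2fastq, TopHat, Bowtie2, Cufflinks and Cuffdiff. The values used, deposited by the authors in the attribute text of each transcript, are FPKM on a linear scale with confidence limits, coverage and the share of the locus. The deposited Cufflinks score was not used. Labels and headers name no genome build. The study's methods describe another route, from STAR to DESeq2, whose counts were not analysed here.

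FPKM of annotated and unannotated isoforms were added per gene. Libraries were rescaled with size factors from the median of ratios, and log2(FPKM + 0.1) was tested in limma 3.58.1 (R 4.3.3; trended, robust eBayes), with Benjamini-Hochberg adjustment over all genes tested. A gene was tested if 3 or more libraries of the fit reached 0.1 FPKM and its longest annotated transcript had 300 bases or more. The fit for NPCs against MSCs held their 6 libraries, and that for IGF-1 cells held all 9. A call needed an adjusted p no higher than 0.05 and a log2 fold change of 1 or more in either direction. The added 0.1 shrinks fold changes of low genes. Reads behind a transcript were taken as the squared ratio of its FPKM to the standard error that its interval implies, and called whole within 0.02. Depth was the median over annotated transcripts of at least 3000 bases with at least 50 whole reads. Numbers that were not whole, as in most MSC values of the members, are approximate. Intervals on reads treat the rounded sums as counts, so they cover counting error at best.

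The labels call the libraries replicates, and the study's methods name 3 rats. Gene names came from the study's supplementary tables, which pair 3589 gene IDs with symbols, 2451 of them present here. The members and lists were chosen with earlier results of these data known. Beside the members, up to 4 genes of each list were named, called genes first by fold change in NPCs and then others by FPKM, together with neighbours of members and the 10 most similar genes. On simulated data with 100 genes changed by 3 on the log2 scale, 93 were called for NPCs against MSCs. Of 100 changed by 1.5, 71 were called, with 5 false calls among 13484 genes in the step. The changed genes were drawn only from genes with higher mean levels, and the rates were not split further by level. These rates do not show how often a change is found in genes with few reads in induced cells, such as Ube2c, Cdca3 and Cenpa. Alternatives were other pseudocounts, filters, scalings, gene sums and sets of libraries, a replicate block, eBayes without trend, and each library left out.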

Additional observations from a re-analysis of the deposited data

Results flagged for a closer look

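Unannotated transcripts on the opposite strand were listed in the 1500 bases before the start of Kif20a, outside the gene sums. They were present in 6 of 6 libraries of induced cells and in 1 of 3 MSC libraries, MSC library 3. The induced libraries held 24.9 to 52.7 reads there and MSC library 3 held 11.9. The base of the transcripts nearest to Kif20a lay between 368 and 601 bases before its start. They stand here because the signal is in data that no comparison used and its reads were above those in MSCs. In FPKM the order differed, with MSC library 3 at 6.71, above the NPC libraries at 2.82, 4.06 and 2.14. The IGF-1 libraries were at 31.3, 4.31 and 23.2 FPKM. The difference was not tested.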

How the results depend on the processing

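Ube2c, Cdca3 and Cenpa were called lower in both comparisons with MSCs under all 17 alternatives of each, and Kif23 under 16 of 17, the exception being annotated transcripts alone. Kif20a was called in the 15 that tested it, down to −1.47 with its 0 values at their limit, and it left the test when any MSC library was left out. The other settings, apart from the value of Kif18a below, called 4 to 5 members lower in NPCs and 4 to 6 in IGF-1 cells. With Kif18a in MSC library 3 at the level its reads imply, which was chosen after seeing the data, all 6 were called lower in both. Kif18a became called in IGF-1 cells also with eBayes without trend (−1.10) and with quantile normalisation (−1.37).

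With a pseudocount of 1 FPKM 1714 genes were called in NPCs and 1759 in IGF-1 cells against MSCs, with 15 and 14 of the other mitosis genes lower. With annotated transcripts alone these were 1199 and 1501 genes, with 12 and 13 mitosis genes, and 19 genes between IGF-1 cells and NPCs. A filter at 1 FPKM left 14 mitosis genes lower in either comparison, from fewer genes tested. Against NPCs, IGF-1 cells had 5 genes called without trend or without a filter, 9 with genes of every length, and 1 to 10 when a library was left out. The cause of the other changes was not tested.

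MSCs and NPCs share rats, but the labels do not say that a replicate number marks a rat. Deviations of libraries with the same number correlated at −0.096 to 0.103, which does not show that the numbers pair the samples and does not settle that they do not. The fit with the replicate number as a block called 2864 genes in NPCs and 3005 in IGF-1 cells against MSCs and 1 between IGF-1 cells and NPCs, with 5 members lower in both comparisons with MSCs. Low members of induced cells rest on 0 to 7 reads in a library, so the size of their fall is known only roughly. Where they entered a fit only through their MSC values, their direction is not support either.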
